A study of Mus musculus with 2 samples.

Results

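The genes described here are the 2 loci of miR-138, Mir138-1 and Mir138-2, and the single locus of miR-137, Mir137. They are microRNA (miRNA) genes with known synaptic roles, and are 3 of the 2202 miRNA genes counted in the series. They were taken by name through a rule that uses no measured value, though with earlier results of these data known. Small RNA libraries of fragments under 30 bases were made from hippocampus; the mice were female B6CASTF1/J, 2 months of age, first-generation hybrids of a C57BL/6J and a castaneus-derived strain. The series has 1 group of 2 libraries, biological replicates 1 and 2, with no treatment, mutation or control group. Which layer of the hippocampus was taken is not named in the labels, and both libraries carry 1 shared donor record beside separate tissue records. Nothing states that they came from different animals, so a difference between these libraries may be technical. The tests below set each difference against counting error alone, and do not measure the spread between libraries or animals.

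A miRNA gene is transcribed into a long primary transcript from which a hairpin is cut. One or both arms of the hairpin become mature miRNAs, which bind messenger RNAs mainly through the seed, bases 2 to 8, and lower their translation or stability. miR-138 is a brain-enriched miRNA found in dendrites, where it limits the size of dendritic spines by repressing the depalmitoylating enzyme Lypla1. miR-137 acts in neuronal maturation and at synapses, and the human MIR137 locus is known from genetic studies of schizophrenia.

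The sequences decide which reads can be given to which locus, so they are shown first. RefSeq sequences on GRCm38.p6 were found for 3 of 3 genes, and the seed is in capitals in the mature arms below, written 5′ to 3′.
miR-138-5p, from Mir138-1 and Mir138-2: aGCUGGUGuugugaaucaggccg
miR-138-1-3p, from Mir138-1: cGGCUACUucacaacaccaggg
miR-138-2-3p, from Mir138-2: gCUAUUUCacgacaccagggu
miR-137-5p, from Mir137: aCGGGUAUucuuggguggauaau
miR-137-3p, from Mir137: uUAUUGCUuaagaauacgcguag

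Both miR-138 loci give the same 5p arm of 23 bases, while their 3p arms have different seeds. Aligned without gaps, the 3p arms overlap over 20 bases and are identical at 18 of them. The differences are C7U and A13G, with the base of miR-138-1-3p first, that of miR-138-2-3p last, and positions counted from 1 at the 5′ end of miR-138-1-3p. None of these seeds occurred in a mature arm of another gene among the 1674 distinct mature sequences of the RefSeq table, which is not complete.

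The hairpins show how far the likeness of the miR-138 loci reaches, with the longest stretch they share in capitals, and for Mir137 the 3p arm in capitals.
Mir138-1, chr9:122682876-122682974, plus strand: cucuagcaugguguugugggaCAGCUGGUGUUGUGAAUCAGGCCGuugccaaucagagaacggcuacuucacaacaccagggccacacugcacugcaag
Mir138-2, chr8:94324311-94324381, plus strand: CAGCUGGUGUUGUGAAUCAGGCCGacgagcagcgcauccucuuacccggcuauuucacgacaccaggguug
Mir137, chr3:118433857-118433929, plus strand: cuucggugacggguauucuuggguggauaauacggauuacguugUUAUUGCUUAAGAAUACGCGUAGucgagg

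Within the annotated hairpins the shared stretch of the miR-138 loci is 24 bases long, the whole 5p arm and 1 base before it. It starts at base 1 of the Mir138-2 hairpin, so bases of that locus further upstream were not compared. A read of the 5p arm that ends within this stretch matches both loci equally well. The deposited counts give no gene to reads with more than 1 mapping place, which were 45.9% of the reads of replicate 1 and 48.4% of those of replicate 2. How many of these were miR-138-5p is not given in the tables, and neither are the arm and the length of the reads that were counted, so the values of both miR-138 loci are uncertain and their sum is not the level of mature miR-138. Outside the pair, the longest stretch shared with another of the 2202 hairpins, on either strand, was 12 bases for Mir138-1 and 10 for Mir138-2. Mir137 shared at most 11 bases with any other hairpin, so its arms had no such copy among the annotated miRNA genes.

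The 3 loci lie apart in the mm10 genome and within different transcripts of their own strand in the GENCODE M21 annotation. Mir138-1 (ENSMUSG00000065414.1) overlaps an exon of Gm47135, annotated as a transcribed pseudogene. Mir138-2 (ENSMUSG00000065512.3) overlaps an exon of the long non-coding gene C78859, with the nucleoporin gene Nup93 ending 7083 bases before it and the sodium chloride cotransporter gene Slc12a3 starting 4819 bases after it. Mir137 (ENSMUSG00000065569.2) overlaps an exon of the non-coding gene Gm26871. The nearest other annotated miRNA gene lies 408847 bases from Mir138-1 and 180664 bases from Mir138-2. Next to Mir137, 791 bases downstream on the same strand, lies the predicted miRNA gene Gm24155, which had 0 counts in both libraries. The unit CPM below divides a gene's sense counts by the library's total over all miRNA genes, times 1000000. The limit that a count of 0 allows, 3 counts, is 0.664 CPM for replicate 1 and 0.502 CPM for replicate 2.

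RNAfold gave a minimum free energy of -45.5 kcal/mol for the 99 bases of Mir138-1, -29.3 kcal/mol for the 71 bases of Mir138-2 and -31.2 kcal/mol for the 73 bases of Mir137. Per base these are -0.46, -0.41 and -0.43 kcal/mol, beside a median of -0.41 kcal/mol over the 1005 hairpins of the RefSeq table. The miR-138 loci had equally many paired bases in the shared arm: in the 5p arm 18 of 23 bases were paired in Mir138-1, 18 of 23 in Mir138-2 and 21 of 23 in Mir137.

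Replicate 1 held 4517648 sense counts on miRNA genes and replicate 2 held 5979247, 38.7% and 36.7% of all their reads. Of the genes listed as markers, the neuronal Mir128-1 and Mir128-2, which are copies of each other, summed to 1.61% and 1.38% of counts together with the 3 miR-124 genes. No miR-124 gene had more than 13 counts, so nearly all of this sum came from the miR-128 genes. Reads that match more than 1 copy are left out, so the sums given here do not rank the cell types. The oligodendrocyte genes Mir219a-2 and Mir338 summed to 0.653% and 0.697%, the endothelial Mir126a to 1.13% and 1.36%, the leukocyte and microglial Mir142 and Mir223 to 0.00899% and 0.00763%, and the red cell genes Mir451a and Mir144 to 0.00733% and 0.0121%. Of the 4 striated muscle genes 3 had no count and Mir1a-2 had 1 count in replicate 1, and the liver gene Mir122 stood at 41.4 and 36.0 CPM. By the test described below, the neuronal, oligodendrocyte, endothelial and red cell genes with enough counts differed between the libraries, while Mir142, Mir223 and Mir122 did not pass. The oligodendrocyte genes went opposite ways, with log2 ratios of replicate 2 over replicate 1 of 0.41 for Mir219a-2 and -0.10 for Mir338. Of all 420 genes tested 56.9% passed, and of the 93 genes with a mean of 1000 CPM or more 88 did. The part of these cell types in the values below was not tested. In bulk tissue, fewer cells of a type and less RNA per cell cannot be told apart.

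Mir137 was the most abundant of the 3 genes. It had 37399 counts in replicate 1, or 8278 CPM (95% Wilson interval 8195 to 8362), and 49472 counts in replicate 2, or 8274 CPM (8202 to 8347). With this denominator the libraries were the same to within counting error, which is all that these intervals cover, since amplified reads are not independent molecules. Under some other scalings, given below, Mir137 differed between the libraries. The mean was 8276 ± 3.16 CPM (SD, n = 2), 0.828% of all counts, and Mir137 ranked 24 of 2202 genes by its mean, 28 in replicate 1 and 25 in replicate 2.

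Mir138-1 came second. It had 18609 counts and 4119 CPM in replicate 1 (4061 to 4179) and 23872 counts and 3992 CPM in replicate 2 (3942 to 4043). Replicate 1 was slightly the higher, and the Wilson intervals did not overlap. The mean was 4056 ± 89.6 CPM (SD, n = 2), with rank 44, and 42 and 45 in the single libraries.

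Mir138-2 was the lowest of the 3. It had 10270 counts and 2273 CPM in replicate 1 (2230 to 2318) and 11795 counts and 1973 CPM in replicate 2 (1937 to 2009). Replicate 1 was again the higher, with a wider gap than for Mir138-1. The mean was 2123 ± 212.6 CPM (SD, n = 2), with rank 63, and 56 and 68 in the single libraries. In counts given to 1 place, the order Mir137, Mir138-1, Mir138-2 held in both libraries, and the values of the 3 genes did not overlap. Together the 3 genes took 1.47% of replicate 1 and 1.42% of replicate 2.

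**Figure D1:**
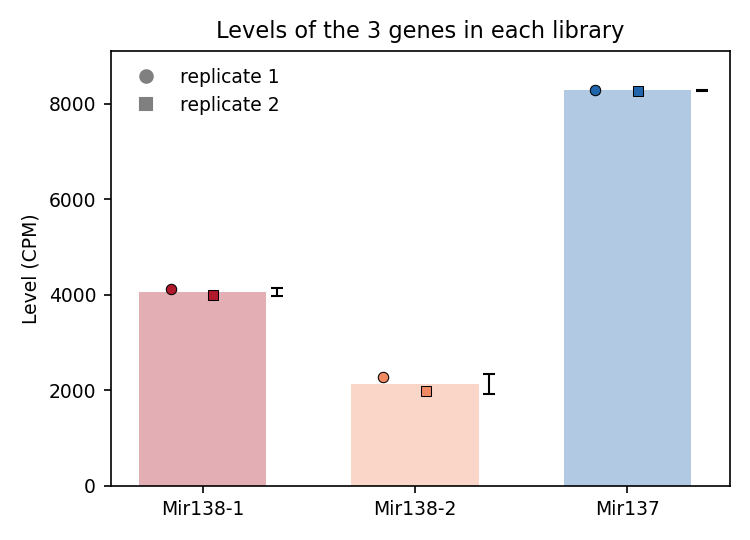
Level in CPM of each gene; bars are the mean of the libraries, error bars beside them the SD (n = 2), circles replicate 1 and squares replicate 2 with 95% Wilson intervals that are mostly smaller than the symbols. Mir137 stands near 8276 CPM in both libraries, Mir138-1 near 4056 CPM and Mir138-2 near 2123 CPM, and replicate 1 lies above replicate 2 for both miR-138 loci.

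A small RNA read covers about 1 mature arm, and the arms of these genes are 21 to 23 bases long, so counts were not divided by length. Divided by the annotated hairpin length, the levels were 113.4 CPM per base for Mir137, 41.0 for Mir138-1 and 29.9 for Mir138-2. The order was the same, and the gap between the miR-138 loci was smaller because the hairpin of Mir138-1 is annotated with 99 bases and that of Mir138-2 with 71.

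All 3 genes were counted on the sense strand alone. Each had 0 antisense counts in both libraries, and the counts without regard to strand were equal to the sense counts.

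The miR-138 loci were then set against each other within each library. Mir138-1 gave 64.4% of the 28879 counts of both loci in replicate 1 (exact 95% interval 63.9 to 65.0) and 66.9% of the 35667 counts in replicate 2 (66.4 to 67.4). On the scale of counts, Mir138-1 stood 1.81-fold above Mir138-2 in replicate 1 (1.77 to 1.86) and 2.02-fold in replicate 2 (1.98 to 2.07). Of the counts given to 1 place, Mir138-1 therefore held the larger part in both libraries. Its share was 2.49 percentage points higher in replicate 2, with intervals that did not overlap. Reads that match both miR-138 loci are not in these counts, so the counts do not show which locus gives more mature miR-138. Per base of hairpin the ratios of Mir138-1 to Mir138-2 were 1.30 and 1.45. Over both libraries the share was 65.7% ± 1.76 (SD, n = 2).

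Mir137 stood above the sum of both miR-138 loci. The ratio of Mir137 to their summed counts was 1.30 in replicate 1 (exact 95% interval 1.28 to 1.32) and 1.39 in replicate 2 (1.37 to 1.41). Against Mir138-1 alone it was 2.01 (1.97 to 2.05) and 2.07 (2.04 to 2.10). These ratios concern counts given to 1 place, and leave out reads of miR-138-5p that match both loci.

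To place the miR-138 pair, it was set beside the other pairs of genes that share an identical mature arm in the RefSeq table, share none with a further gene, and had at least 10 counts in both libraries for each locus. There were 19 such pairs with the miR-138 loci. By summed counts in replicate 1 the miR-138 pair was number 2, after Mir128-1 and Mir128-2. Averaged over the libraries, the larger locus gave 65.7% for miR-138, beside 54.7% to 99.7% over the 19 pairs with a median of 83.3%. The share of a locus moved between the libraries by 2.49 percentage points for miR-138, less in 11 pairs and more in 7, with a median of 2.04 over all 19. The exact intervals of the libraries lay apart in 8 pairs, miR-138 among them. Mir128-1, in a pair that shares 23 bases, gave 83.3% and 81.3% of its pair. The smallest and the largest shift, chosen after the values were seen, were 0.0188 points for Mir219a-1 and Mir219a-2 and 26.9 points for Mir26a-1 and Mir26a-2. These are descriptions of counts given to 1 place, and the pairs differ in how many bases they share.

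**Figure D2:**
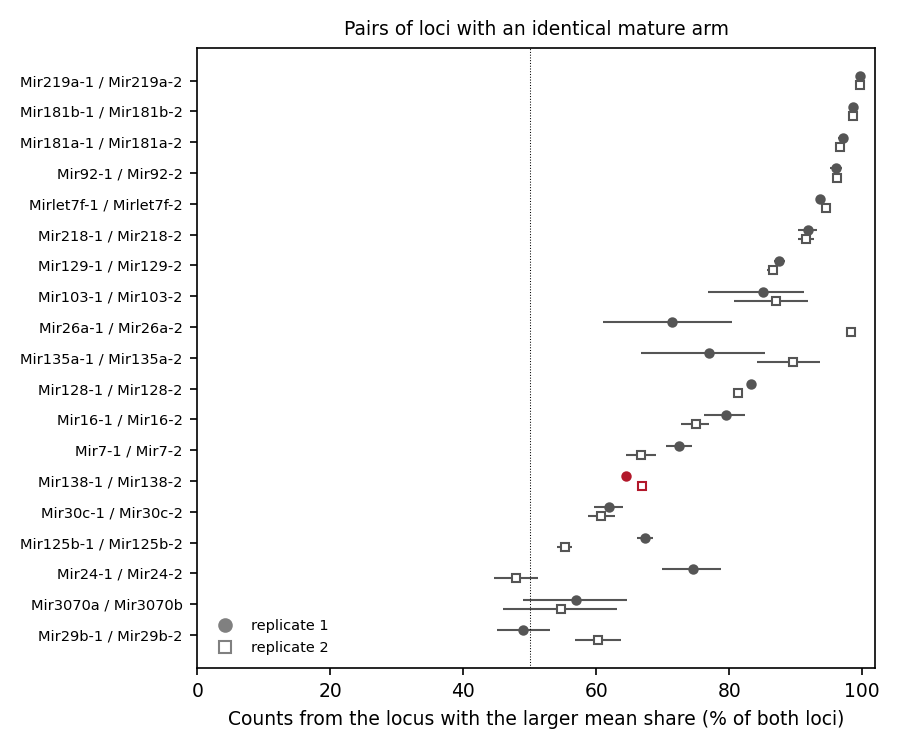
Share of a pair's counts (%, horizontal axis) that came from the locus with the larger mean share, for 19 pairs of genes with an identical mature arm; filled circles are replicate 1, open squares replicate 2, lines exact 95% intervals, and the miR-138 pair is red. The miR-138 pair lies at 64.4% and 66.9%, below the median of 83.3% over the 19 pairs.

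Each gene was compared between the libraries by Fisher's exact test (two-sided), which sets its counts beside the remaining sense counts of the library. The test takes reads as independent draws, and a pass means a difference beyond counting error only as far as that holds. P-values were adjusted by the Benjamini-Hochberg method over the 420 genes that reached 10 counts in each library. At a threshold of 0.05, 2 of the 3 genes differed between the libraries, both lower in replicate 2. Of all 420 genes, 56.9% passed, 27.1% higher and 29.8% lower in replicate 2, and among the 93 genes with a mean of 1000 CPM or more 88 passed. Since most abundant genes passed, the ratios are given first below, as log2(CPM + 0.5) of replicate 2 minus replicate 1.

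Mir137 had a log2 ratio of -0.00078 (exact binomial 95% interval -0.020 to 0.019) and did not pass (adjusted p = 0.964, Fisher's exact test). Of the 420 genes tested only Mir5113, named here after its value was seen, had a smaller absolute ratio, with 34 and 45 counts, and of the 93 abundant genes none had. This closeness depends on the scaling. With TMM factors the log2 ratio of Mir137 became 0.037 (adjusted p = 0.000487, exact binomial test) and with DESeq2 size factors 0.042 (adjusted p = 4.7e-05), so that Mir137 passed as higher in replicate 2. With all reads of the library as the denominator it was -0.077 (adjusted p = 1.9e-14, Fisher's exact test) and passed as lower. The interval covers counting error and not the choice of the denominator.

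Mir138-1 had a log2 ratio of -0.045 (-0.073 to -0.017), a level 1.03-fold higher in replicate 1 (adjusted p = 0.00298, Fisher's exact test). Of the 420 genes 31 had a smaller absolute ratio, and of the 93 abundant genes 7 did. The call was lost with TMM factors (log2 ratio -0.0076, adjusted p = 0.699, exact binomial test), with DESeq2 size factors (-0.0019, adjusted p = 0.940) and without the most abundant gene, Mirlet7g, in the total (-0.027, adjusted p = 0.0895, Fisher's exact test).

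Mir138-2 moved most of the 3, with a log2 ratio of -0.20 (-0.24 to -0.17), a level 1.15-fold higher in replicate 1 (adjusted p = 3.7e-25, Fisher's exact test). Of the 420 genes 160 had a smaller absolute ratio and 259 a larger one. Under all 12 alternatives run for it the gene stayed lower in replicate 2 and past the threshold, with log2 ratios between -0.28 and -0.16. Among them, the pseudocounts reused the p-value and the minimum counts left the ratio as it was. The median absolute log2 ratio was 0.30 over the 420 genes and 0.26 over the 93 abundant ones, so under this scaling each of the 3 genes moved less than the median gene of either set.

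**Figure D3:**
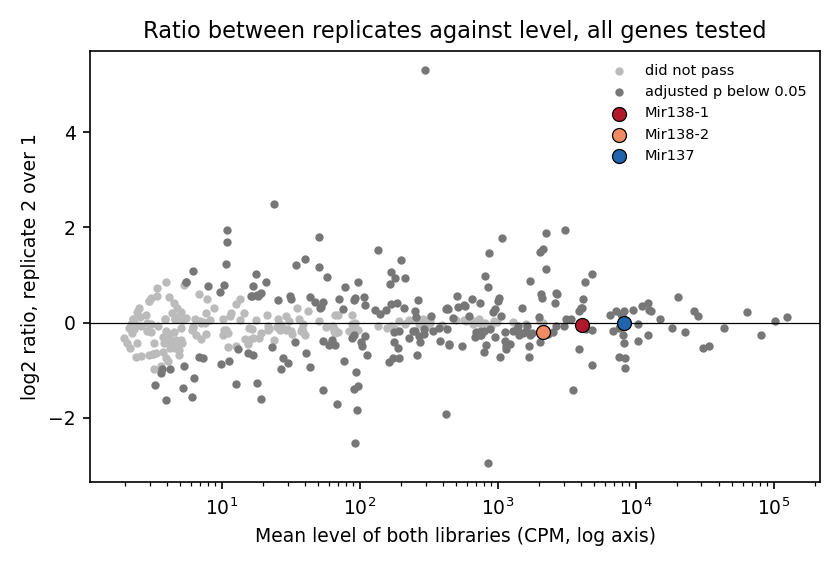
Log2 ratio of replicate 2 over replicate 1 (vertical axis) against the mean level in CPM (horizontal log axis) for the 420 genes tested; dark grey points passed the threshold, light grey points did not, and the 3 genes are coloured. Mir137 at -0.00078, Mir138-1 at -0.045 and Mir138-2 at -0.20 lie close to the zero line.

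The genes most like each of the 3 in level were taken as the 2 next above and the 2 next below in the order of mean CPM over the 2 libraries. Around Mir137 these were Mir23a (10441.5 and 6217 CPM in replicates 1 and 2), Mir149 (10944 and 5680 CPM), Mir652 (9418 and 6982 CPM) and Mir26b (7475 and 8850 CPM). Each of them lay on both sides of Mir137 and varied more between the libraries than Mir137 did. The neighbours were picked for a close mean in these same libraries. Lying on both sides largely follows from that choice and does not show equal levels.

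Around Mir138-1 stood the oligodendrocyte gene Mir338 (4269 and 3984 CPM) and Mirlet7f-2 (3645 and 4509 CPM) above, and Mir100 (3605 and 4460 CPM) and Mir378a (3574 and 4214 CPM) below. Around Mir138-2 stood Mir140 (1095 and 3188 CPM) and Mir320 (2150.0 and 2128 CPM) above, and Mir598 (1719 and 2450 CPM) and Mir342 (1628 and 2488 CPM) below. The ranges of all 8 overlapped that of the gene they neighbour, which again largely follows from the choice by mean. The ranks within each such run are not settled by these libraries. Of the 12 neighbours only Mir320, with a log2 ratio of -0.015 (adjusted p = 0.557, Fisher's exact test), did not pass.

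**Figure D4:**
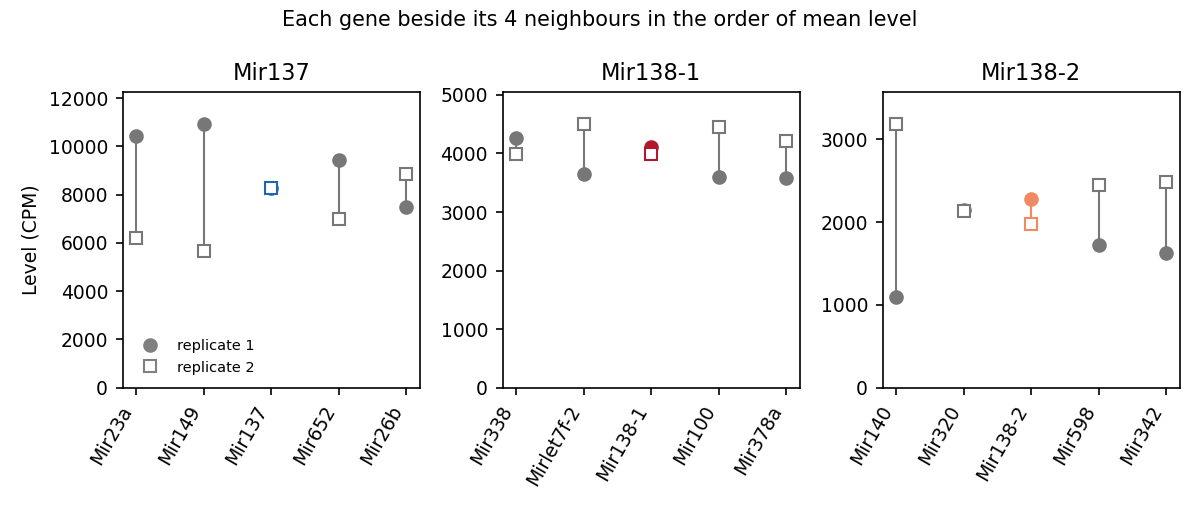
Level in CPM of each gene (coloured) and of its 2 neighbours above and 2 below in the order of mean level (grey), with filled circles for replicate 1 and open squares for replicate 2. The symbols of Mir137 coincide at about 8276 CPM, while Mir23a ran from 10441.5 down to 6217 CPM; Mir140 beside Mir138-2 ran from 1095 up to 3188 CPM.

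Other miRNA genes known from neurons, dendrites or synapses were taken from a list of 27 genes, all of them in the tables and 23 of them with enough counts to be tested. Of these 23, 7 were higher in replicate 2, 11 were lower and 5 did not pass by the same Fisher's exact test, beside 27.1% higher and 29.8% lower among all 420 genes tested and 88 of the 93 abundant genes past the threshold. The median log2 ratio of the 23 was -0.07, as it was over all 420 genes tested. The list summed to 7.57% of counts in replicate 1 and 7.86% in replicate 2.

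On the scale of CPM, not divided by length, its 4 most abundant genes all stood above Mir137. Mir132, which is induced by neuronal activity, had 16627 and 24242 CPM in replicates 1 and 2, a log2 ratio of 0.54, and Mir125a, which has been tied to synaptic protein synthesis, had 19005 and 17636 CPM. Mir29a stood at 14765 and 15477 CPM, and Mir128-1, which damps neuronal excitability, at 13444 and 11179 CPM. All 4 passed the threshold. Mir134, the dendritic miRNA first linked to spine size, stood at 391.8 and 361.4 CPM (log2 ratio -0.12, adjusted p = 0.0225, Fisher's exact test), below both miR-138 loci in each library.

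Low counts were found for the gene copies of 2 brain miRNAs, miR-124, which is typical of neurons, and miR-9, which is typical of neural cells. Mir124a-1 had 13 and 9 counts, Mir124a-2 had 4 and 0, and Mir124a-3 had 2 and 3. Mir9-3 had 343 and 650 counts, Mir9-1 had 22 and 101, and Mir9-2 had 5 and 12. As for all genes here, reads with more than 1 mapping place are not in these counts, and how many there were for each gene is not given in the tables.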

How the data were processed

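Per the deposited notes, the authors used the mm10 build and the GENCODE M21 annotation, and for each library they deposited raw counts of reads per miRNA gene. Not given in the sources used here are the aligner, the adapter trimming and how strain differences of the hybrid mice were handled. The sense counts (column 3) were used, and the 4 leading lines with reads given to no gene stayed out of library sizes and tests. Unmapped reads were 11.8% and 11.2% of replicates 1 and 2. Reads with 1 mapping place outside the sense strand of the counted miRNA genes were 3.60% and 3.69%. All 2202 identifiers matched GENCODE M21.

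Levels are CPM with the SD over 2 libraries. With 1 group there is no contrast for edgeR's quasi-likelihood test, so Fisher's exact test compared the libraries over 420 genes with at least 10 counts in both (scipy 1.17.1). It was tested on simulated counts whose only random variation was counting error. That does not show how it behaves where libraries vary beyond counting error. Alternatives were TMM (edgeR 4.0.16) and DESeq2 1.42.0 size factors, other denominators, minimum counts of 1, 5, 100 and none, counts without regard to strand, pseudocounts of 1 and 5 CPM, replicate 2 thinned at random to 4517648 counts, and leaving out each replicate. Hairpins were folded with RNAfold 2.7.2. The genes and lists were chosen with earlier results of these data known. The named genes are the 3 genes, the 4 nearest to each in mean CPM, the 4 most abundant of the neuronal list, its miR-124 and miR-9 genes, the marker genes and adjacent genes. Mir134, Mir219a-1, Mir26a-1, Mir26a-2, Mir5113 and Mirlet7g, the most abundant gene, are named outside it, with their values known.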

Additional observations from a re-analysis of the deposited data

How the results depend on the processing

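The number of genes that differed between the replicates was 239 in the reported analysis and 200 to 251 under its 10 alternatives. Of the 12 alternatives for a ratio, the pseudocounts reused the p-value of the reported analysis, so they could not change a call. The minimum counts left the ratio as it was and changed only the adjustment of its p-value. Both kinds count as kept in the tallies that follow. The ratio of Mir138-2 kept its direction and its call under all 12. For Mir138-1, 9 of 12 kept both, and the log2 ratio was -0.0076 with TMM factors, -0.0019 with DESeq2 size factors and -0.027 without the most abundant gene in the total, none past the threshold. For Mir137 the sign turned to 0.037 with TMM factors, 0.042 with DESeq2 size factors, 0.017 without the most abundant gene and 0.0076 with counts without regard to strand, and the ratio was -0.077 with all reads as the denominator. These scalings moved the median log2 ratio of all genes by -0.071 to 0.042. The cause was not tested beyond the change of denominator that each makes.

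With all reads as the denominator the levels of Mir138-1, Mir138-2 and Mir137 were 1531, 802.4 and 3122 per 1000000 reads, without the most abundant gene 4630.4, 2423 and 9449.5 CPM, and per base of hairpin, an alternative added after the data were seen, 41.0, 29.9 and 113.4 CPM. With counts without regard to strand Mir138-1 and Mir137 were at 4393 and 8965 CPM, through smaller totals. Per base of hairpin the share of Mir138-1 was 57.9% and the ratio of Mir137 to both loci 1.60. Leaving out 1 replicate gave 3992 to 4119, 1973 to 2273 and 8274 to 8278 CPM, but leaves no ratio between libraries. No paired analysis was possible because there is 1 group.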
